A study of Mus musculus with 24 samples.

Results

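This is a description of 34 genes of DNA replication in sorted CD31+ cells of the mouse embryo, which the labels call embryonic hematopoietic. The genes were chosen by name for their known role in copying DNA, though earlier results of these data were known. All 34 were found by symbol among the 29716 genes of the deposited count table, and all 34 were among the 15618 genes kept by the filter on low counts and tested. They comprise 4 genes of origin recognition and loading, the 6 Mcm2-7 genes, 6 of helicase activation, 6 of the clamp and its loader, 5 of the polymerases and primase, 2 of lagging strand joining, 4 of nucleotide supply, and Uhrf1.

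Before S phase, the origin recognition complex, Cdc6 and Cdt1 load the Mcm2-7 ring on DNA, and Cdc45 and the GINS proteins then turn that ring into the active helicase. Primase and DNA polymerase alpha start each strand, the Rfc loader places the sliding clamp Pcna, polymerases delta and epsilon extend, and Fen1 and Lig1 join the fragments of the lagging strand. Ribonucleotide reductase, thymidylate synthase and thymidine kinase supply the precursors. Transcripts of many of these genes are known to rise from late G1 into S phase under E2F factors, so their level in bulk RNA depends on how many cells are cycling as well as on the level in each cell.

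The series holds 24 RNA-seq libraries from C57BL/6J mouse embryos at E10.5, and its title concerns the Notch ligand Dll4 in the formation of aortic hematopoietic clusters. Embryos were given anti-human IgG (the control) or anti-Dll4 by injection into the heart and kept for 5 h at 37 °C under 5% CO2. The myeloid medium held interleukin-3 at 10 ng/ml, hydrocortisone at 10 µM and the injected antibody at 5 µg/ml. All sorted cells were CD31+ and fell into 3 populations, which were Kit- CD41+ CD45-, Kit+ CD45+ or Kit+ CD45-, so that there were 6 groups with 4 libraries each (n = 4). No group carries a transgene or a mutation in the labels, which name neither the dissected tissue nor the number of embryos behind a library, so p-values measure the spread between these libraries, which may in part be technical. Totals ran from 8718351 to 11379830 counts per library.

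The sorting genes Ptprc and Kit followed the gates under IgG. Ptprc, which encodes CD45, was at 53 to 117 CPM in Kit+ CD45+ IgG libraries and at most 1.51 in CD45- IgG libraries, and Kit was at 2.14 to 5.22 CPM in Kit- IgG libraries and at least 34.4 in Kit+ ones. The share of counts from 8 globin genes under IgG was at most 0.0218% in Kit+ CD45+ cells, 4.17 to 9.79% for Kit- CD41+ CD45- and 16.8 to 33.7% for Kit+ CD45-, and under anti-Dll4 it was at most 0.0226%, 8.33 to 14.1% and 22.1 to 49.3%. Levels are therefore given as CPM, counts relative to the library total, scaled by TMM factors, a trimmed mean scaling that takes such large differences into account, unless stated. Of 10 megakaryocyte and platelet markers, all 10 had counts in each population under IgG, and their summed level was 107 to 345 CPM for Kit+ CD45+, 772 to 3639 for Kit+ CD45- and 21579 to 29016 for Kit- CD41+ CD45-. Of 10 macrophage markers, all 10 had counts in Kit+ CD45+ cells under IgG, summing to 176 to 2360 CPM, against 7 of 10 and 19.5 to 36.9 CPM in Kit+ CD45- cells, where C1qc, Adgre1 and Fcgr1 were at 0. In Kit- CD41+ CD45- cells under IgG the 10 macrophage markers summed to 83.1 to 126 CPM. The 8 markers of primordial germ cells summed under IgG to 65.6 to 363 CPM for Kit+ CD45-, 50.7 to 349.7 for Kit+ CD45+, where Pou5f1 was at 0, and 1.45 to 9.99 for Kit- CD41+ CD45-, where Dppa3 and Pou5f1 were at 0. The 10 endothelial markers all had counts in each population under IgG, and summed to 234 to 363 CPM for Kit- CD41+ CD45-, 914 to 1956 for Kit+ CD45- and 1546 to 2219 for Kit+ CD45+. Under anti-Dll4 they summed to 240 to 299, 472 to 934 and 1648 to 2113 CPM in the same order. The platelet markers then summed to 525 to 1646 CPM for Kit+ CD45-. The 10 mesenchyme markers reached 592 CPM in a Kit+ CD45- anti-Dll4 library, where the median was 86.4, and at most 142 in Kit+ CD45- IgG libraries. The 3 libraries of anti-Dll4 replicate 1 had 523 to 1244 counts of the Y-linked gene Ddx3y and the other 21 at most 15. The part of these other cells and RNAs in the results below was not tested.

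The windows before the start sites of these genes hold letters known from the binding of cell cycle factors, and 4 are shown because their genes differ in how they varied between libraries. The RefSeq promoter windows (GRCm38.p6) matched 27 of the 34 genes, with 32 windows, and the 250 bases upstream of each start were searched on both strands for the E2F-type motifs TTTCCCGC, TTTGGCGC and TTTCGCGC, which can overlap each other, and for CCAAT, the motif of NF-Y. An E2F-type motif was found in 9 of 32 windows (28.1%), against 1.53% of all 32851 windows of the same length. CCAAT was found in 20 of 32 windows (62.5%), against 33.8% of all windows. The genes with an E2F-type motif were Cdc6, Gins3, Mcm5, Mcm6, Mcm7, Orc1, Pola1, Rfc3 and Uhrf1. Capitals mark these motifs on either strand, and each sequence runs 5′ to 3′ on the strand of the gene. Mcm5 (chr8:75109259-75109508, plus strand) and Mcm6 (chr1:128359706-128359955, minus strand) encode subunits of the same ring, and in both a pair of E2F-type motifs on opposite strands overlap in 1 run of capitals. Pola1 (chrX:93632156-93632405, minus strand), the catalytic subunit of DNA polymerase alpha, has an E2F-type motif too. The window of Lig1 (chr7:13276925-13277174, plus strand), DNA ligase 1, which is 1 of 3 for this gene, holds none of the motifs.
Mcm5: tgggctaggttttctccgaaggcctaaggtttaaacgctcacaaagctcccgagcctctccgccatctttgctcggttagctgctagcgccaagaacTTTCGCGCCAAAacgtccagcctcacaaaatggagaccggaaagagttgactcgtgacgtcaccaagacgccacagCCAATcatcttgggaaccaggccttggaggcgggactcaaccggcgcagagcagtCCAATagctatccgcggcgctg
Mcm6: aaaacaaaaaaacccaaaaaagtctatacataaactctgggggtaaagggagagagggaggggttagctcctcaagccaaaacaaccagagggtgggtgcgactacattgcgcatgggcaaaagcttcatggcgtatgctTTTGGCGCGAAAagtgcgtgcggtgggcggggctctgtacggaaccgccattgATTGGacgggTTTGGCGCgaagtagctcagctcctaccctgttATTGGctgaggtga
Pola1: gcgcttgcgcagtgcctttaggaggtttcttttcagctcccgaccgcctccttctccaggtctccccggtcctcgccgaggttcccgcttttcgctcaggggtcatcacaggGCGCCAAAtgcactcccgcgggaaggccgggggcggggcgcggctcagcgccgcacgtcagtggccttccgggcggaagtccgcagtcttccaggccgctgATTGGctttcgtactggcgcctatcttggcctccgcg
Lig1: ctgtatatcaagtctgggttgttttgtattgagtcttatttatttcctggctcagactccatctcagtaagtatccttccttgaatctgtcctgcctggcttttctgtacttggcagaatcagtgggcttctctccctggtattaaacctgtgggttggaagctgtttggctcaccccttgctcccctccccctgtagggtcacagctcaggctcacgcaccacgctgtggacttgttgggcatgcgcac

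With TMM scaling the 34 genes together were highest in Kit+ CD45- cells, whereas as a share of all counts, globin counts included, they were highest in Kit+ CD45+ cells. Under IgG their summed level was 4904 to 6036 CPM for Kit+ CD45- (median 5615), 4331 to 5200 for Kit+ CD45+ (median 4785) and 3840 to 4830 for Kit- CD41+ CD45- (median 4237), so the ranges of neighbouring populations overlapped and those of the first and the last did not. Under anti-Dll4 the medians were 5820, 4569 and 4315 CPM in the same order. The share of all counts under IgG, with the globin counts in the total, was 0.549 to 0.711% for Kit+ CD45+, 0.42 to 0.665% for Kit+ CD45- and 0.378 to 0.497% for Kit- CD41+ CD45-. Globin genes made up 16.8 to 33.7% of that total for Kit+ CD45- and at most 0.0218% for Kit+ CD45+. The share without globin counts is not given here, so this order is not a check on the order with TMM scaling. In bulk samples such as these, fewer cycling cells and less RNA per cell cannot be told apart. Of the 34 genes, 11 passed the test described below between no pair of populations under either antibody: Mcm2, Mcm5, Mcm6, Cdc45, Gins2, Gins3, Rfc1, Rfc5, Prim2, Uhrf1 and Fen1. Of these 11, Mcm2, Mcm5, Mcm6, Gins3, Rfc1 and Fen1 passed between some pair with a replicate block for the libraries that share an antibody and a number.

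Per length of transcript the genes spanned a wide range, taking the longest protein-coding transcript of GENCODE M21 as the length. In Kit+ CD45- cells under IgG the Mcm2-7 genes, whose proteins are needed in equal number, lay between 47.7 CPM per kb for Mcm2 and 101 for Mcm6. Pcna, which acts as a ring of identical subunits, stood at 127 CPM per kb and Rrm2, the small subunit of ribonucleotide reductase, at 193. The catalytic subunits of the polymerases were low on this scale, with Pold1 at 7.03 CPM per kb, Pole at 3.28 and Pola1 at 11.5. The levels of Pold1 rested on as few as 52 counts in a library and those of Orc1 on 53, while the lowest count of Rfc4 was 2040.

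The first question was whether replication genes differ between Kit+ CD45- and Kit- CD41+ CD45- cells. Under IgG, 15 of the 34 genes were higher in Kit+ CD45- cells and only Rfc2 was lower, where 14% of all genes tested were higher and 13.8% lower (edgeR quasi-likelihood test, adjusted p under 0.05). Under anti-Dll4, where the means come from other libraries but the dispersion from the same fit of all 24, 18 were higher and 1 lower, against 14.7% and 15.2% of all genes. The median log2 fold change of the 34 was 0.45 under IgG and 0.52 under anti-Dll4, beside 0.06 and 0.07 for all genes tested. Of the genes higher under IgG, 13 were also higher under anti-Dll4, which is 86.7% of the first list and 72.2% of the second, beside 68.5% and 65.6% for all genes that were higher. These 13 were Mcm3, Mcm7, Mcm10, Cdc6, Cdt1, Gins1, Pcna, Rfc3, Pole, Prim1, Rrm2, Tyms and Lig1, and the gene that was lower in both was Rfc2. With library totals in place of TMM factors, 5 genes were higher and 1 lower under IgG, against 9.43% and 15% of all genes, and 3 were higher and 2 lower under anti-Dll4, against 7.32% and 20.1%. With library totals without globin genes 24 were higher under IgG, and with no filter on low counts 8 were higher under IgG and 11 under anti-Dll4. The shares of all genes in these settings are not given here, so these counts describe the members alone. The count of 15 fell to 9 without Kit+ CD45- IgG replicate 2 and to 8 without Kit- CD41+ CD45- IgG replicate 3, and the count of 18 fell to 11 without Kit+ CD45- anti-Dll4 replicate 2 or without Kit- CD41+ CD45- anti-Dll4 replicate 1; without Kit+ CD45- anti-Dll4 replicate 2, 2 genes were lower.

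**Figure D1:**
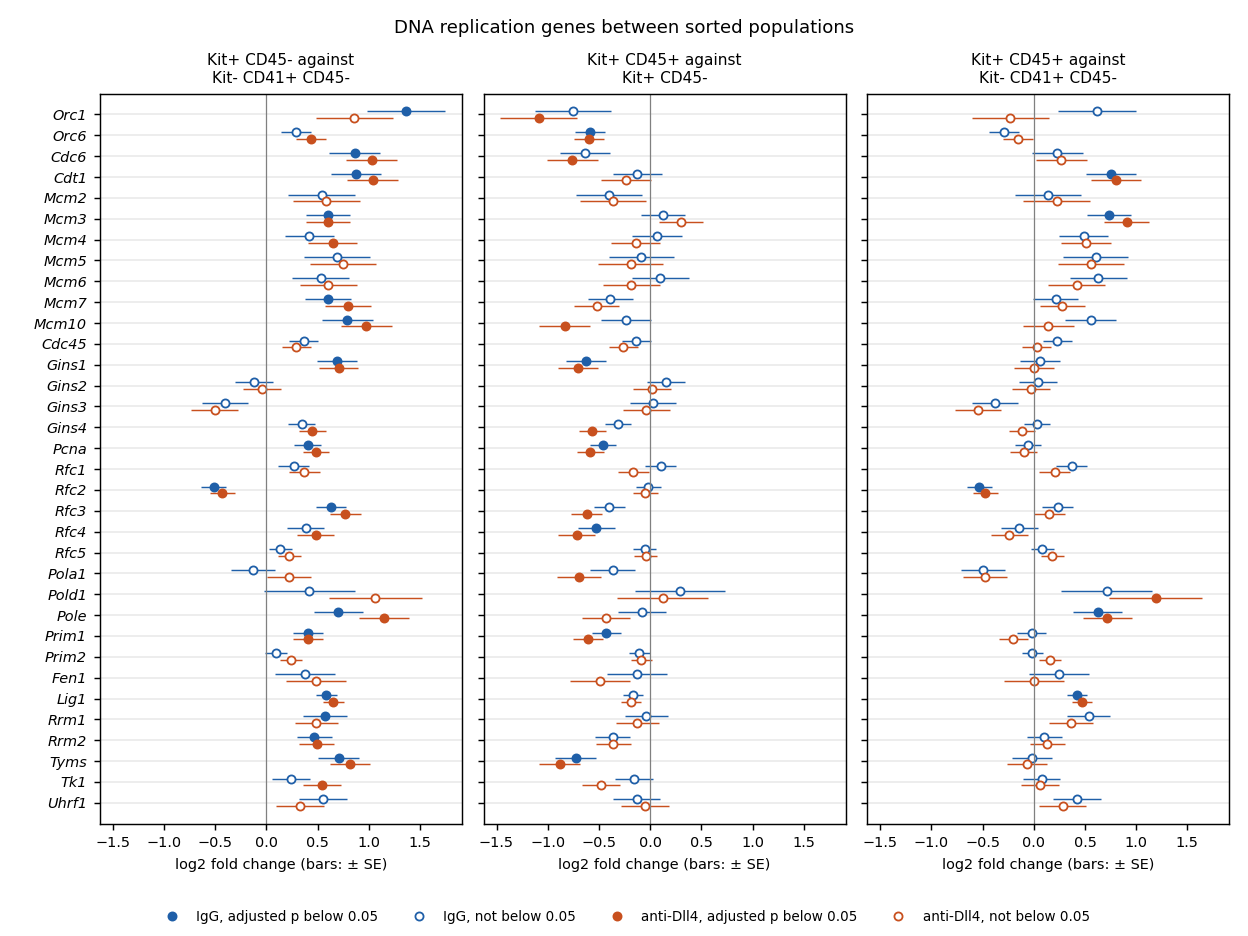
Log2 fold change (x axis) with its standard error (bars) for each of the 34 genes (y axis, ordered by role) between 3 pairs of populations, under IgG (blue) and anti-Dll4 (orange); filled points passed the adjusted p threshold of 0.05. In the left panel 15 genes under IgG and 18 under anti-Dll4 are filled on the right of 0 and Rfc2 is filled on the left; in the middle panel filled points lie on the left of 0, a side that 10 of these 18 results leave when library totals replace TMM factors.

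Lig1 (chromosome 7, 13277283 to 13311433, ENSMUSG00000056394.17), which seals the nicks of the lagging strand, had the smallest p of the 34 genes in this comparison under both antibodies. Under IgG it stood at 151, 141, 148 and 143 CPM in Kit+ CD45- cells and at 93.1, 98.6, 99.3 and 98 in Kit- CD41+ CD45- cells. Every Kit+ CD45- library lay well above every Kit- CD41+ CD45- library, and the libraries of each group lay close together. The log2 fold change was 0.59 (SE 0.10, adjusted p = 7.87e-05), or 1.5-fold. Under anti-Dll4 the levels were 157, 171, 150.3 and 149.5 CPM against 95.5, 99.9, 88.9 and 115, again without overlap, and the log2 fold change was 0.65 (SE 0.10, adjusted p = 1.93e-05). Fen1, the nuclease that trims the flaps before ligation, did not pass the test in either case, with 119 ± 37.7 CPM against 91.4 ± 18.1 under IgG (SD, n = 4).

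Among the genes that load the helicase, Cdt1 (chromosome 8, 122568015 to 122573554, ENSMUSG00000006585.3) stood at 80.7, 61, 51.2 and 78.7 CPM in Kit+ CD45- cells under IgG and at 39.2, 49.5, 33.3 and 26.2 in Kit- CD41+ CD45- cells. The groups did not overlap, but the lowest Kit+ CD45- library and the highest Kit- CD41+ CD45- library were close. Its log2 fold change was 0.87 (SE 0.24, adjusted p = 0.00919) under IgG and 1.04 (SE 0.25, adjusted p = 0.00238) under anti-Dll4. Cdc6 (chromosome 11, 98907801 to 98923940, ENSMUSG00000017499.15), the ATPase that works with Cdt1, stood at 109.6, 88.4, 48.9 and 85.2 CPM against 49.1, 56.6, 36.2 and 40.6 under IgG. Here Kit+ CD45- replicate 3 was far below its group and within the range of the other population. The log2 fold change of Cdc6 was 0.86 (SE 0.25, adjusted p = 0.0114) under IgG and 1.03 (SE 0.25, adjusted p = 0.00304) under anti-Dll4. Orc1, the ATPase subunit of the origin recognition complex, had the highest log2 fold change of the 34 genes under IgG, 1.37 (SE 0.38, adjusted p = 0.00893), from low levels of 33.6, 32.5, 14.7 and 31.1 CPM against 9.75, 18.9, 8.72 and 5.88. Kit+ CD45- replicate 3 was again the low library, and the groups overlapped. Under anti-Dll4 Orc1 did not pass the test (log2 fold change 0.86, adjusted p = 0.0894). Orc6, the smallest subunit of that complex, had a log2 fold change of 0.29 under IgG (adjusted p = 0.144) and of 0.43 (SE 0.15, adjusted p = 0.027) under anti-Dll4. Whether the antibodies differed in these contrasts is taken up with the antibody below.

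All 6 Mcm2-7 genes had a higher mean in Kit+ CD45- than in Kit- CD41+ CD45- cells, with log2 fold changes of 0.42 to 0.69 under IgG and 0.59 to 0.80 under anti-Dll4, but only Mcm3 and Mcm7 passed the test under IgG and Mcm3, Mcm4 and Mcm7 under anti-Dll4. Of 39 alternatives, the IgG calls were lost in 11 for Mcm3 and 17 for Mcm7. The anti-Dll4 calls were lost in 13 for Mcm3, 22 for Mcm4 and 2 for Mcm7. Mcm3 (chromosome 1, 20802968 to 20820312, ENSMUSG00000041859.10) stood at 313, 209.6, 194 and 219 CPM in Kit+ CD45- cells under IgG and at 179, 179, 125 and 132 in Kit- CD41+ CD45- cells. Its groups did not overlap, and the highest library was Kit+ CD45- replicate 1. The log2 fold change of Mcm3 was 0.60 (SE 0.22, adjusted p = 0.0401), and that of Mcm7 was 0.60 (SE 0.22, adjusted p = 0.0445). Mcm5 shows how the spread limits these genes in a test without a block: under IgG it stood at 278, 185, 116 and 179.6 CPM against 156, 137, 94.1 and 82.3. The range within Kit+ CD45- cells was wider than the gap between the means, 189.7 ± 66.9 and 118 ± 35.1 CPM (SD, n = 4), and Mcm5, with a log2 fold change of 0.69, did not pass (adjusted p = 0.116). At each replicate number, however, the Kit+ CD45- library was the higher one. Of the sum of squares of Mcm5 within groups, 82.1% lay between the sets that share an antibody and a number. With a block by these sets, Mcm2, Mcm5 and Mcm6 passed in this comparison under both antibodies.

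Of the 6 genes of helicase activation, Mcm10 and Gins1 were higher in Kit+ CD45- cells under IgG, and Mcm10, Gins1 and Gins4 under anti-Dll4. Gins1 (chromosome 2, 150905400 to 150931280, ENSMUSG00000027454.10), a subunit of the GINS complex, stood at 71.2, 115, 92.5 and 78.4 CPM in Kit+ CD45- cells under IgG and at 41.8, 66.4, 53 and 60.8 in Kit- CD41+ CD45- cells. The groups did not overlap, and the log2 fold change was 0.69 (SE 0.19, adjusted p = 0.00971). Mcm10, a scaffold of the starting replisome, stood at 41.3, 38, 34.7 and 40.3 CPM against 28.5, 26.7, 14.9 and 19, again without overlap, and its log2 fold change was 0.79 (SE 0.25, adjusted p = 0.0194). The GINS subunits did not move as 1 block: Gins2 had a log2 fold change of -0.12 (adjusted p = 0.681) and Gins3 of -0.40 (adjusted p = 0.199), so neither passed the test, and both point estimates had the other sign. A difference between subunits was not tested.

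The clamp loader held genes that passed the test in opposite directions. Rfc3 (chromosome 5, 151642756 to 151651242, ENSMUSG00000033970.15), a small subunit of the loader, stood at 102, 142, 107 and 95.9 CPM in Kit+ CD45- cells under IgG and at 64.4, 78.4, 69.1 and 76.5 in Kit- CD41+ CD45- cells. The groups did not overlap, and the log2 fold change was 0.63 (SE 0.15, adjusted p = 0.0027) under IgG and 0.77 (SE 0.15, adjusted p = 0.000401) under anti-Dll4. Rfc2 (chromosome 5, 134581366 to 134601805, ENSMUSG00000023104.9), another small subunit of the same complex, stood at 299.5, 374, 355 and 326 CPM in Kit+ CD45- cells and at 469.5, 490.5, 482 and 492 in Kit- CD41+ CD45- cells. Every Kit- CD41+ CD45- library lay above every Kit+ CD45- library. Rfc2 was lower in Kit+ CD45- cells, with a log2 fold change of -0.51 (SE 0.12, adjusted p = 0.0026) under IgG and -0.43 (SE 0.12, adjusted p = 0.00947) under anti-Dll4. Pcna (chromosome 2, 132249162 to 132253314, ENSMUSG00000027342.14), the clamp itself, stood at 179.8, 217, 182 and 194 CPM against 125, 174, 126 and 159 under IgG. The lowest Kit+ CD45- library lay just above the highest of the other population. The log2 fold change of Pcna was 0.40 (SE 0.13, adjusted p = 0.0219) under IgG and 0.48 (SE 0.13, adjusted p = 0.00632) under anti-Dll4. Rfc1 and Rfc5, the large subunit and a small one, passed the test under neither antibody, and Rfc4 had a log2 fold change of 0.38 under IgG (adjusted p = 0.119) and of 0.48 under anti-Dll4 (adjusted p = 0.0462). The anti-Dll4 call of Rfc4 was lost in 23 of 39 alternatives, limma-voom and no filter included.

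Pole (chromosome 5, 110286306 to 110337474, ENSMUSG00000007080.14), the catalytic subunit of the leading strand polymerase epsilon, stood at 19.7, 20.9, 27.5 and 25.9 CPM in Kit+ CD45- cells under IgG and at 12.4, 15.6, 13.8 and 16 in Kit- CD41+ CD45- cells, without overlap. Its log2 fold change was 0.70 (SE 0.24, adjusted p = 0.0302) under IgG and 1.15 (SE 0.24, adjusted p = 0.000812) under anti-Dll4. Prim1, the catalytic subunit of primase, was higher too, with 191 ± 20.7 CPM against 144 ± 19.8 and a log2 fold change of 0.41 (SE 0.14, adjusted p = 0.0371). Its partner Prim2 stood at 91.8 ± 3.63 CPM against 86.2 ± 6.8 and did not pass the test (adjusted p = 0.576). Pola1, which forms 1 complex with both, did not pass it either, at 61.6 ± 16.9 CPM against 67.3 ± 8.67.

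Tyms (chromosome 5, 30058202 to 30073617, ENSMUSG00000025747.12), thymidylate synthase, stood at 322, 426, 369.8 and 347 CPM in Kit+ CD45- cells under IgG and at 187, 225, 212 and 274 in Kit- CD41+ CD45- cells. The groups did not overlap. The log2 fold change was 0.71 (SE 0.20, adjusted p = 0.0092), or 1.63-fold. Under anti-Dll4 Kit+ CD45- replicate 3 was low and replicate 4 high, at 437, 443, 263 and 667 CPM against 269, 247, 208 and 303, so the groups overlapped, and the log2 fold change was 0.82 (SE 0.20, adjusted p = 0.00286). Of the ribonucleotide reductase subunits, Rrm2 was higher under both antibodies, at 0.47 (adjusted p = 0.0439) and 0.49 (adjusted p = 0.0329), and Rrm1 under IgG, at 0.57 (adjusted p = 0.0472). The IgG calls were lost in 20 of 39 alternatives for Rrm2 and in 24 for Rrm1, globin genes left out and no filter included. Tk1, thymidine kinase, stood at 106, 142, 94.4 and 125 CPM under anti-Dll4 against 82.1, 81.8, 70.7 and 86.3, without overlap, with a log2 fold change of 0.54 (SE 0.19, adjusted p = 0.0298). Uhrf1, which binds the hemimethylated sites left by replication, stood at 71.5, 48.9, 39.2 and 41.7 CPM against 34.6, 47.2, 25 and 30.3 under IgG, with overlap, and did not pass the test (log2 fold change 0.55, adjusted p = 0.0808).

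**Figure D2:**
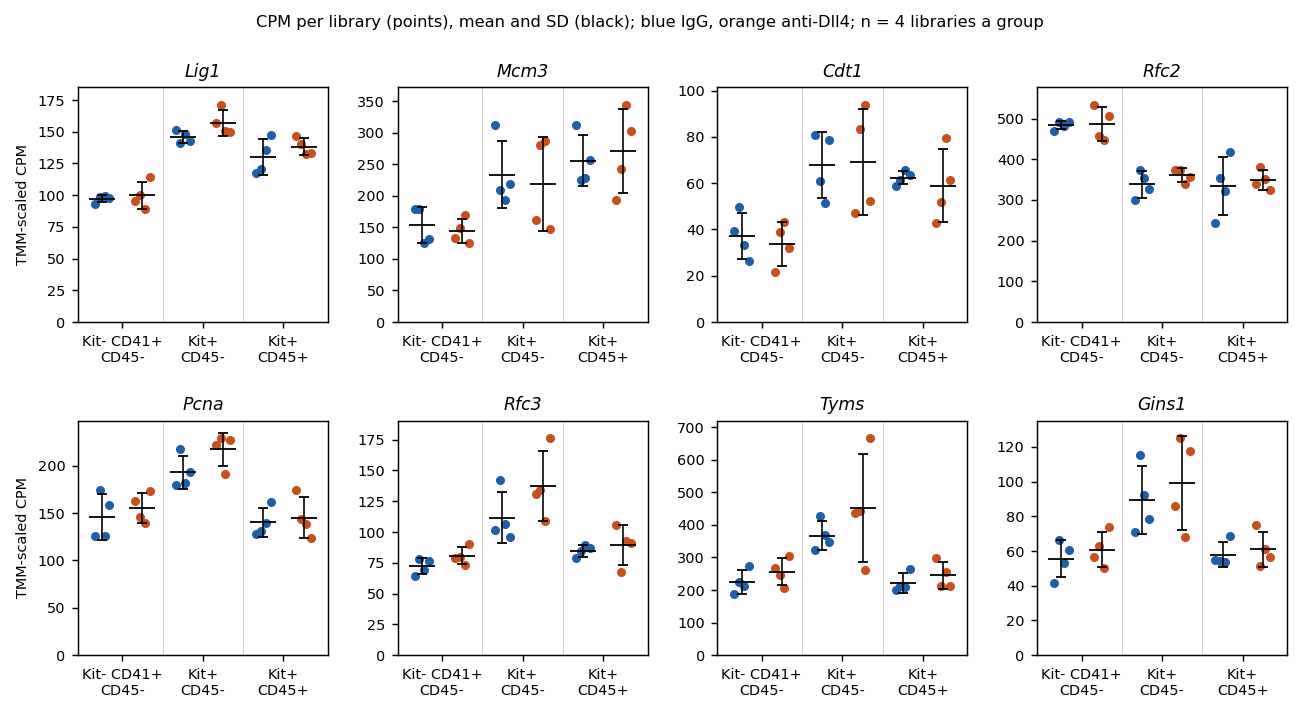
TMM-scaled CPM (y axis, from 0) of 8 replication genes in every library by population (x axis); points are libraries under IgG (blue) or anti-Dll4 (orange), black marks are the mean and bars the SD over 4 libraries. With TMM scaling Lig1, Mcm3 and Cdt1 have their low group in Kit- CD41+ CD45- cells, and Rfc2 has its high group there. Pcna, Rfc3, Tyms and Gins1 then have their highest means in Kit+ CD45- cells. With library totals Rfc2 does not pass between Kit+ CD45+ and Kit- CD41+ CD45- cells under either antibody. The difference of Pcna between the Kit+ populations changes sign with library totals under both antibodies, and those of Rfc3 and Gins1 under anti-Dll4.

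The second comparison set Kit+ CD45+ against Kit+ CD45- cells, 2 populations that differ in the CD45 gate and share the Kit+ CD45- libraries with the comparison above. With TMM scaling, 6 genes were lower in Kit+ CD45+ cells and 0 higher under IgG, where 9.18% of all genes were lower and 10% higher; with library totals in place of TMM factors, where the median of all genes shifted from 0.04 to 0.52, 0 were lower and 3 higher, against 4.87% and 29% of all genes. Under anti-Dll4, 12 were lower and 0 higher with TMM scaling, against 12.6% and 16.6% of all genes, and 0 were lower and 7 higher with library totals, where the median of all genes shifted from 0.10 to 0.79 and 4.24% of all genes were lower and 48% higher. With library totals without globin genes, all 6 genes that were lower under IgG still passed as lower. Of the 12 under anti-Dll4, only Cdc6 and Orc1 then no longer passed. The share of all genes in that setting is not given here. The median of the 34 genes was -0.15 under IgG and -0.36 under anti-Dll4 with TMM scaling, and 0.33 in both cases with library totals. It lay below the median of all genes. A change of scaling shifts all genes nearly alike, so this position is the same with library totals by construction and is no check on scaling. All 6 genes that were lower under IgG were also lower under anti-Dll4: Gins1, Orc6, Pcna, Rfc4, Prim1 and Tyms, which are 50% of the second list, beside 73.7% and 53.7% of the lists of all genes that were lower. The count of 6 fell to 2 without Kit+ CD45- IgG replicate 2 and to 3 without replicate 1, 2 or 3 of Kit+ CD45+ IgG; under anti-Dll4 leaving out any library gave 9 to 13 genes.

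Orc6 (chromosome 8, 85299632 to 85308278, ENSMUSG00000031697.12) had the smallest p of the 34 genes here under IgG. It stood at 184, 193, 204 and 226 CPM in Kit+ CD45+ cells and at 288, 338, 288 and 298 in Kit+ CD45- cells, without overlap, and the log2 fold change was -0.59 (SE 0.15, adjusted p = 0.00605). Under anti-Dll4 the value was -0.59 (SE 0.15, adjusted p = 0.00386), where replicate 1 of Kit+ CD45+ cells, at the high end of 299.7, 195, 217 and 211 CPM, reached into the range of the other population. Tyms stood at 199, 212, 208 and 266 CPM in Kit+ CD45+ cells under IgG, below every Kit+ CD45- library given above. Its log2 fold change was -0.73 (SE 0.20, adjusted p = 0.0112) under IgG and -0.88 (SE 0.20, adjusted p = 0.00169) under anti-Dll4, but it did not pass with library totals, where it was -0.23 (adjusted p = 0.151) and -0.075 (adjusted p = 0.626). With library totals the anti-Dll4 values of Orc6, Pcna, Gins1, Gins4, Rfc3, Rfc4, Prim1 and Pola1 and the IgG values of Pcna and Prim1 changed sign.

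Pcna had the smallest p under anti-Dll4. It stood at 175, 143, 139 and 123 CPM in Kit+ CD45+ cells and at 222, 229, 191 and 227 in Kit+ CD45- cells. The groups did not overlap, and the log2 fold change with TMM factors was -0.58 (SE 0.13, adjusted p = 0.00161); it was 0.14 with library totals. Gins4, a GINS subunit, had a log2 fold change of -0.56 (SE 0.13, adjusted p = 0.00211) with TMM factors, from 164 ± 26.5 CPM in Kit+ CD45- to 111 ± 7.49 in Kit+ CD45+ cells, and was at 0.19 with library totals. Mcm10, Cdc6 and Orc1 were also lower under anti-Dll4, with log2 fold changes of -0.83, -0.76 and -1.09, but none of the 3 passed with library totals, where they were at -0.18, -0.059 and -0.41 (adjusted p = 0.649, 0.883 and 0.425). None of the Mcm2-7 genes passed the test between these populations with TMM factors. Mcm3, for example, stood at 313, 225, 229 and 257 CPM in Kit+ CD45+ cells under IgG, which overlapped the Kit+ CD45- values, with a log2 fold change of 0.13 (adjusted p = 0.738).

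Kit+ CD45+ against Kit- CD41+ CD45- cells is the third pair and shares its libraries with the other 2. Under IgG, 4 of the 34 genes had a higher and 1 a lower level in Kit+ CD45+ cells, against 19.7% and 17.5% of all genes, and under anti-Dll4 5 were higher and 1 lower, against 20.4% and 17.3%. These counts are below the background shares. With library totals they were 16 higher and 0 lower under each antibody, where 30.4% of all genes were higher under IgG and 34.6% under anti-Dll4. The Pole call under IgG was lost in 20 of 39 alternatives, RLE factors, limma-voom and both replicate blocks included. Mcm3, Cdt1, Pole and Lig1 were higher under both antibodies, which is 100% of the IgG list and 80% of the anti-Dll4 list, beside 82.4% and 79.8% of all genes that were higher, and Rfc2 was lower under both. Leaving out Kit- CD41+ CD45- IgG replicate 3 or 4 left 2 genes higher, and leaving out Kit- CD41+ CD45- anti-Dll4 replicate 1 or Kit+ CD45+ anti-Dll4 replicate 3 left 3; the count of lower genes was 2 without Kit+ CD45- IgG replicate 1, 3 without Kit+ CD45+ anti-Dll4 replicate 1, and 2 without Kit+ CD45- anti-Dll4 replicate 2 or 3, Kit- CD41+ CD45- anti-Dll4 replicate 3 or Kit+ CD45+ anti-Dll4 replicate 4.

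Mcm3 stood at 313, 225, 229 and 257 CPM in Kit+ CD45+ cells under IgG, against 179, 179, 125 and 132 in Kit- CD41+ CD45- cells. All Kit+ CD45+ libraries lay above the others, and the log2 fold change was 0.73 (SE 0.22, adjusted p = 0.0101) under IgG and 0.91 (SE 0.22, adjusted p = 0.00201) under anti-Dll4. Lig1 stood at 117, 121, 136 and 148 CPM in Kit+ CD45+ cells under IgG, between the other populations in mean, and its log2 fold change against Kit- CD41+ CD45- cells was 0.42 (SE 0.10, adjusted p = 0.00155). Under anti-Dll4 Lig1 stood at 147, 141, 132 and 133 CPM and its log2 fold change was 0.47 (SE 0.10, adjusted p = 0.000541). Cdt1 stood at 58.9, 61.4, 65.5 and 63.5 CPM in Kit+ CD45+ cells under IgG, with a small spread and no overlap with Kit- CD41+ CD45- cells (log2 fold change 0.75, SE 0.24, adjusted p = 0.0179). Rfc2 stood at 243, 354, 323 and 417 CPM in Kit+ CD45+ cells, all below the Kit- CD41+ CD45- libraries, and its log2 fold change was -0.53 (SE 0.12, adjusted p = 0.00132) under IgG and -0.48 (SE 0.12, adjusted p = 0.00339) under anti-Dll4. With library totals Rfc2 did not pass under either antibody. Pold1 was higher under anti-Dll4, at 12.7, 28.7, 28.8 and 23.2 CPM against 8.23, 11.8, 15.1 and 5.78, where the groups overlapped and the log2 fold change was 1.19 (SE 0.46, adjusted p = 0.043).

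Set side by side, the genes differed in which population stood apart. The log2 fold changes of Lig1 under IgG were 0.59 for Kit+ CD45- against Kit- CD41+ CD45- cells, 0.42 for Kit+ CD45+ against Kit- CD41+ CD45- cells and -0.16 for Kit+ CD45+ against Kit+ CD45- cells, and those of Rfc2 were -0.51, -0.53 and -0.02. For both, the last value did not pass the test (adjusted p = 0.269 and 0.94), and with TMM scaling the population that stood apart was Kit- CD41+ CD45-. With library totals Rfc2 still passed under IgG between the 2 CD45- populations. Between Kit+ CD45+ and Kit- CD41+ CD45- cells it then did not (edgeR quasi-likelihood test, adjusted p = 0.322). For Tyms the same 3 values were 0.71, -0.02 and -0.73, for Gins1 0.69, 0.06 and -0.63, and for Pcna 0.40, -0.06 and -0.46. For these 3 genes the middle value did not pass, and the population that stood apart with TMM scaling was Kit+ CD45-, the one with the most globin counts; the part of red cell RNA in this was not tested.

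The effect of the antibody was then examined within each population. No replication gene passed the test (edgeR quasi-likelihood) in any of the 3 populations, in their average or in the difference of the effect between populations. Of all genes tested, 0% were higher and 0% lower in either CD45- population and in the average, 0.0064% (1 gene) were higher and 0% lower among Kit+ CD45+ libraries, and 0.0256% (4 genes) differed in effect between populations. At an unadjusted p under 0.05 there were 1, 0, 0, 1 and 0 replication genes for Kit+ CD45-, for Kit- CD41+ CD45-, for Kit+ CD45+, for the average and for the difference, of 1733, 435, 453, 1311 and 631 genes in all. The difference between populations in the antibody effect, which is also the difference between antibodies in the contrasts above, had its smallest p among the 34 genes for Mcm10 (unadjusted p = 0.235, adjusted p = 1). limma-voom and DESeq2 also called 0 replication genes in each. The median log2 fold change of the 34 in the same populations was 0.09, 0.01 and -0.05. The SE of a single gene in these populations ran from 0.098 to 0.46.

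The member with the smallest p under the antibody was Pola1 in Kit+ CD45- cells. It stood at 83.1, 70, 75.4 and 112 CPM under anti-Dll4 and at 38.6, 68.9, 78.2 and 60.8 under IgG. The groups overlapped, with IgG replicate 1 low and anti-Dll4 replicate 4 high, and the log2 fold change of 0.46 (SE 0.22, adjusted p = 0.438) did not pass the test. In Kit- CD41+ CD45- cells the smallest p belonged to Pold1, the catalytic subunit of polymerase delta, at 8.23, 11.8, 15.1 and 5.78 CPM under anti-Dll4 and 26.6, 23.3, 12.2 and 10.4 under IgG, with overlap and a log2 fold change of -0.83 (SE 0.46, adjusted p = 1). In Kit+ CD45+ cells it belonged to Mcm10, at 24.9, 26.6, 25.8 and 22.7 CPM against 43.6, 26.3, 22.8 and 38.4, where the anti-Dll4 libraries lay close together within the range of the IgG libraries. Its log2 fold change was -0.39 (SE 0.25, adjusted p = 1). In the average over the populations Rfc3 had the smallest p, with a log2 fold change of 0.18 (SE 0.09, adjusted p = 0.59).

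**Figure D3:**
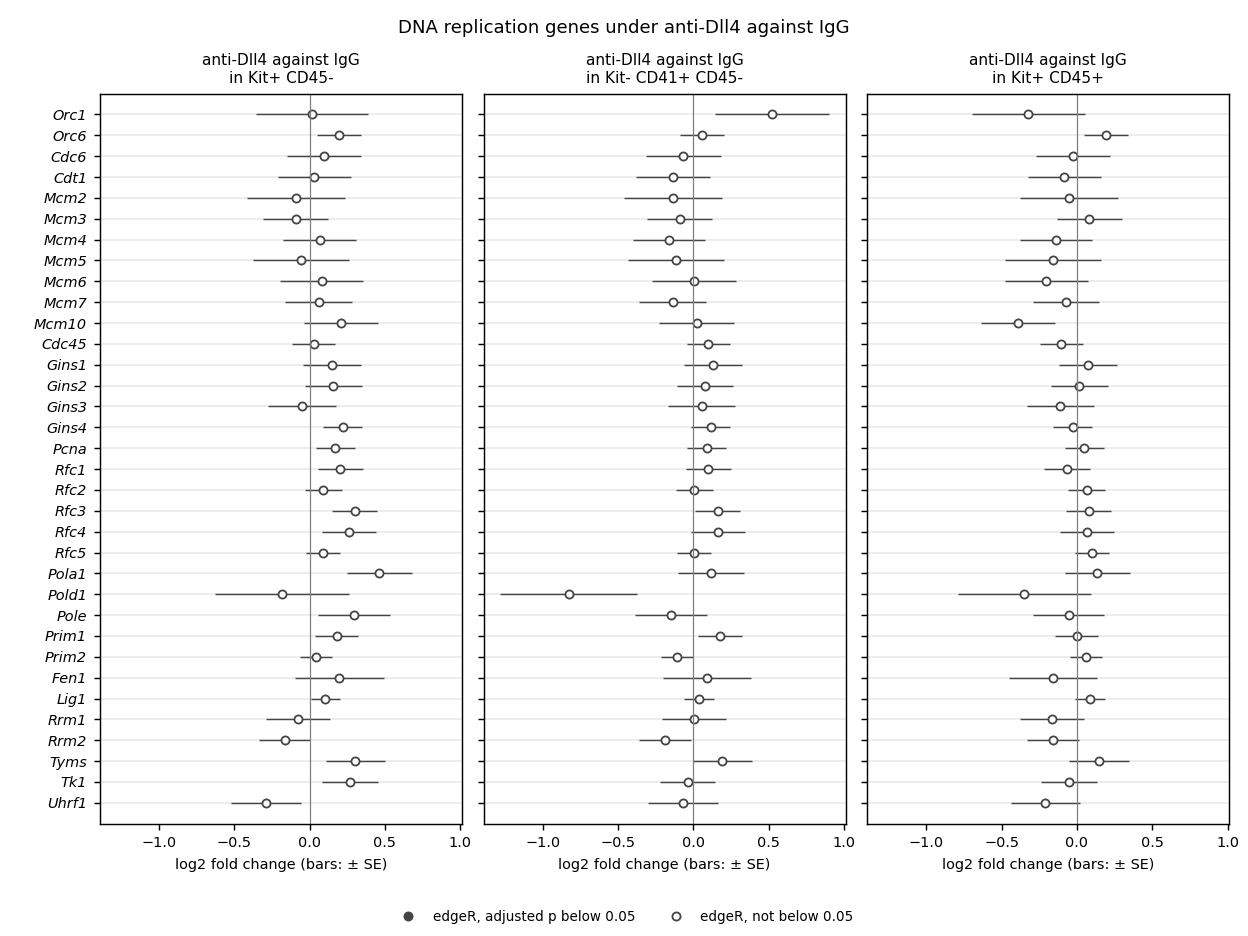
Log2 fold change under anti-Dll4 against IgG (x axis) with its standard error (bars) for the 34 genes (y axis) in each population; open points did not pass the adjusted p threshold of 0.05. All 34 points are open in each panel, and the estimates run from -0.83 for Pold1 to 0.52 for Orc1, both in Kit- CD41+ CD45- cells.

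Other genes of replication were counted in the same fits, with TMM scaling; these lists were not recomputed with library totals. Of 51 further replication genes (such as the remaining origin, polymerase, single-strand binding and chromatin assembly factors), 13 were higher and 1 lower in Kit+ CD45- than in Kit- CD41+ CD45- cells under IgG, and 19 were higher and 1 lower under anti-Dll4, with median log2 fold changes of 0.31 and 0.38, where 14%, 13.8%, 14.7% and 15.2% of all genes were called. The 1 that was lower in both was Pold4, the small accessory subunit of polymerase delta, at 19.5 ± 4.51 CPM against 44.7 ± 5.08 under IgG (log2 fold change -1.20, SE 0.25, adjusted p = 0.000695). Nasp, a histone chaperone, was higher by 0.75, Wdhd1, which links polymerase alpha to the helicase, by 1.02, and Rnaseh2a, which removes ribonucleotides from DNA, by 0.93. In Kit+ CD45+ against Kit+ CD45- cells, 0 of the 51 were higher and 11 lower under IgG, and 2 were higher and 17 lower under anti-Dll4, with medians of -0.24 and -0.27, where 10%, 9.18%, 16.6% and 12.6% of all genes were called. Pole3, a histone-fold subunit of polymerase epsilon, had a log2 fold change of -0.94 (SE 0.15, adjusted p = 0.000103) and Orc2 of -0.94 (SE 0.16, adjusted p = 0.000106), both under IgG. In Kit+ CD45+ against Kit- CD41+ CD45- cells 9 were higher and 6 lower under IgG and 8 were higher and 6 lower under anti-Dll4, where 19.7%, 17.5%, 20.4% and 17.3% of all genes were, so none of these 4 counts is above the share of all genes. Timeless, which protects the fork, was higher there by 1.06 under IgG and by 1.38 under anti-Dll4.

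Of 18 genes that control entry into S phase, 5 were higher and 2 lower in Kit+ CD45- than in Kit- CD41+ CD45- cells under IgG, where 14% and 13.8% of all genes were. E2f5, a repressor E2F, was higher by 0.65 (SE 0.11, adjusted p = 0.000117), and Rb1, the retinoblastoma protein that restrains E2F, was lower, at -0.81 (SE 0.17, adjusted p = 0.000662). Tfdp2, a dimer partner of E2F, was lower in Kit+ CD45+ than in Kit+ CD45- cells, with 38.6 ± 3.46 CPM against 97.7 ± 17.4 under IgG (log2 fold change -1.34, SE 0.15, adjusted p = 6.21e-07). Among 8 genes of mitosis and proliferation, Mki67, which marks cycling cells, stood at 133 ± 17.8 CPM for Kit+ CD45-, 80.5 ± 8.63 for Kit- CD41+ CD45- and 55.9 ± 9.44 for Kit+ CD45+ under IgG. Its log2 fold change was -1.25 (SE 0.19, adjusted p = 4.51e-05) in Kit+ CD45+ against Kit+ CD45- cells, the only 1 of the 8 that passed there under IgG. The summed level of the 8 had another order than Mki67, with medians under IgG of 2254 CPM for Kit+ CD45-, 1887 for Kit+ CD45+ and 1673 for Kit- CD41+ CD45-. Of the 8, 2 were higher and 1 lower in Kit+ CD45+ than in Kit- CD41+ CD45- cells, where 19.7% and 17.5% of all genes were under IgG.

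The 34 genes differed in how much they varied among libraries of the same group. The SD of the log2 deviations from the group means over 24 libraries was 0.10 for Lig1, 0.12 for Prim2 and 0.14 for Rfc5, and 0.51 for Mcm2, 0.51 for Mcm5, 0.58 for Orc1 and 0.68 for Pold1. The Mcm2-7 genes deviated together: across their 15 pairs the Pearson correlation of the deviations was 0.90 to 0.96, with a median of 0.92 over 24 libraries, beside a median of 0.18 for the 561 pairs of all 34 genes. These points share a library, its depth and its scaling factor, so the correlations are descriptions only.

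Some of the other members followed the Mcm2-7 genes and some went the other way. Against the mean deviation of Mcm2-7, Fen1 had r = 0.98, Rrm1 0.95, Pold1 0.89, Cdc6 0.82, Cdt1 0.81, Orc1 0.76, Uhrf1 0.73 and Mcm10 0.72. Gins2 had r = -0.76, Rfc4 -0.75, Pola1 -0.70 and Tyms -0.62, and Lig1 was at -0.24. The subunits of ribonucleotide reductase, Rrm1 and Rrm2, were at 0.95 and 0.43, and the catalytic subunits of polymerases delta and alpha, Pold1 and Pola1, at 0.89 and -0.70. Of the 28 members outside Mcm2-7, 8 (28.6%) had r over 0.7 and 3 (10.7%) had r under -0.7, beside 5.35% and 7.28% of the 15584 genes tested that are no member. Of the 9 genes with an E2F-type motif in the windows described above, 6 had r over 0.7 (Mcm5, Mcm6, Mcm7, Cdc6, Orc1 and Uhrf1), as had 7 of the 18 matched genes without one; outside Mcm2-7, whose likeness is to each other, these were 3 of 6 and 5 of 16. Of the genes with the motif, Gins3 was at -0.03, Rfc3 at -0.50 and Pola1 at -0.70.

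**Figure D4:**
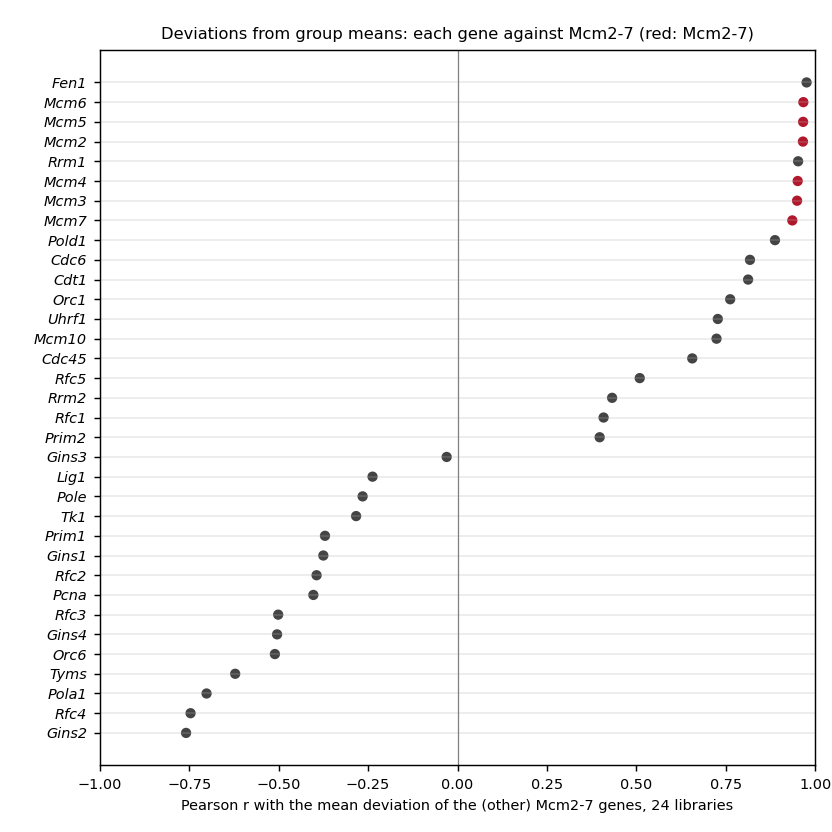
Pearson correlation (x axis) of each gene's log2 deviations from its group means with the mean deviation of Mcm2-7, over 24 libraries, for the 34 genes (y axis); for a Mcm2-7 gene (red) the mean is over the other 5. The red points lie between 0.94 and 0.97, Fen1 and Rrm1 lie beside them, and Gins2 and Rfc4 lie at the other end.

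The deviation of the Mcm2-7 genes followed the set of libraries that share an antibody and a replicate number. In IgG replicate 1 the mean log2 deviation of Mcm2-7 was 0.45 for Kit+ CD45-, 0.31 for Kit- CD41+ CD45- and 0.48 for Kit+ CD45+. In anti-Dll4 replicate 1 it was -0.49, -0.25 and -0.68, and in anti-Dll4 replicate 3 it was 0.52, 0.32 and 0.50. The 3 populations had the same sign in 5 of 8 sets, and 81.2% of the sum of squares of this mean lay between sets, beside a median of 39.8% and a 95th percentile of 69.6% for single genes tested. The 3 libraries of a set share the first number of their name in the descriptions, and the labels do not say what it stands for. The lowest value for Kit+ CD45+ was in anti-Dll4 replicate 1, the set with Ddx3y counts, while for Kit+ CD45- it was in anti-Dll4 replicate 4, at -0.50, and for Kit- CD41+ CD45- in IgG replicate 3, at -0.26.

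The same libraries differed in many genes besides. The mean deviation of Mcm2-7 had an absolute correlation of 0.82 with the first principal component of the deviations of all genes tested, which took 14% of their variance. Genes tested whose deviations ran opposite to Mcm2-7 (r under -0.7) had a median transcript length of 1226 bases, those that ran with them (r over 0.7) 2864, and all genes 2823. Across all genes tested, which are not independent, the Spearman correlation of r with transcript length was 0.21 and with GC content 0.19. Over the 34 genes the same correlations were 0.31 with length and 0.35 with GC content. Of the genes that ran opposite, Rfc4 has a short transcript, at 1279 bases, while Gins2, Pola1 and Tyms have 3900, 5346 and 3163. The part of these library properties in the deviations of Mcm2-7 was not tested.

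**Figure D5:**
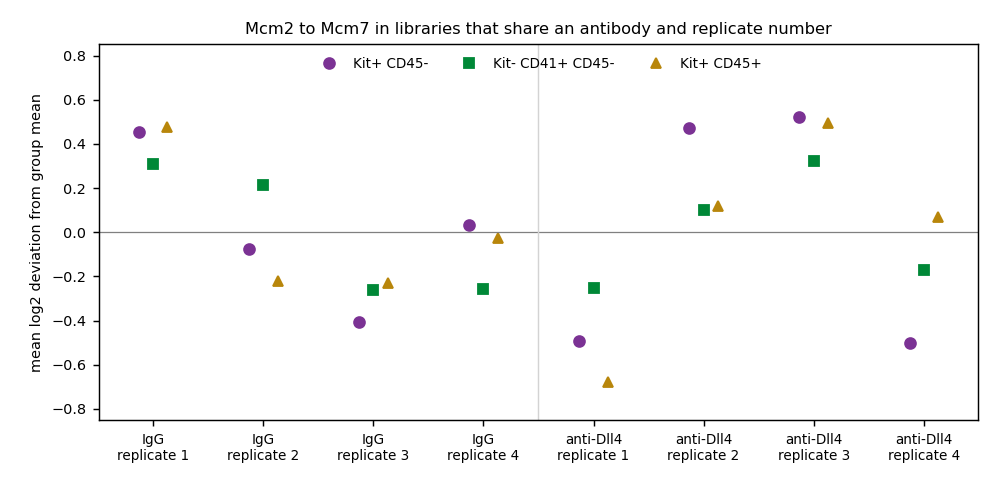
Mean log2 deviation of the 6 Mcm2-7 genes from their group mean (y axis) in each of the 24 libraries, placed by antibody and replicate number (x axis), with a symbol for each population; there are no error bars because each point is 1 library. In IgG replicates 1 and 3 and anti-Dll4 replicates 1, 2 and 3 the 3 symbols lie on the same side of 0, and the lowest point is -0.68 in anti-Dll4 replicate 1.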

How the data were processed

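The authors deposited raw counts of reads per gene for 29716 genes in 24 libraries and a table of log2 values of 30202 genes with gene symbols and positions on mm10. The submitters' processing notes name STAR and HTSeq besides CASAVA 1.4, FastQC and DESeq2; for the step of each and any use of strand in counting, the sources used here give nothing, and reads shared with pseudogene copies could not be told apart. Per the labels' protocols, polyA RNA was turned into cDNA, amplified by long-distance PCR and sequenced on an Illumina HiSeq 2000 instrument, so reads are not independent molecules. The deposited log2 values equal log2(count / size factor + 1) within 5.33e-14 and were used for symbols and positions only; 1 column of that table matches no listed sample and was not used.

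Raw counts were tested with edgeR 4.0.16 (R 4.3.3): TMM factors, the filterByExpr filter by group, 1 coefficient per group over all 24 libraries, robust dispersion and the quasi-likelihood F-test with 18 residual degrees of freedom, adjusted by Benjamini-Hochberg over 15618 genes within each comparison at a threshold of 0.05. The biological coefficient of variation was 0.343. The SE is the absolute log2 fold change divided by the root of F, and the test was checked on simulated counts. Alternatives were RLE and upper-quartile scaling, globin genes left out, no filter, limma-voom (limma 3.58.1), DESeq2 1.42.0, a replicate block, the globin share as a covariate, only the groups compared, and each replicate number and each library left out; library totals without scaling, with and without globin genes, were added after seeing the data. Deviations are log2 TMM-scaled CPM minus the group mean. The 34 genes, the other gene lists and the comparisons were chosen with earlier results of these data known. Values in every library are given for the 1 to 3 genes with the smallest p in each role, for the smallest p in an antibody comparison, and for a few others chosen after their values were seen (such as Mcm5, Tk1 and Uhrf1). Genes of other lists come from the called ones with at least 5 CPM, the 4 lowest p-values per direction. The replicate numbers were checked for pairing over all genes tested. Deviations of libraries with the same antibody and number had correlations of -0.06 to 0.20, with 6 of 24 pairs over 0.1. The main test therefore did not treat the numbers as pairs. This check was over all genes tested. Over the 34 genes alone, these correlations were spread more widely. The lowest was -0.31, for Kit+ CD45- with Kit- CD41+ CD45- in IgG replicate 4. The highest was 0.89, for the same populations in anti-Dll4 replicate 3. Libraries of different sets also reached 0.92, for Kit+ CD45- IgG replicate 1 with Kit- CD41+ CD45- anti-Dll4 replicate 3. The median percent of the sum of squares between sets was 53.9 for the 34 genes and 39.8 for all genes tested. For the mean of Mcm2-7, 81.2% of the sum of squares lay between sets, and the 3 libraries of anti-Dll4 replicate 1 share the Ddx3y counts. A block by antibody and number was run as an alternative. More of the 34 genes then passed in each pair of populations under each antibody, as given below.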

Additional observations from a re-analysis of the deposited data

Results flagged for a closer look

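In 8 of 204 combinations of a gene and a group, 1 library of 4 stood far from the other 3, by a gap of more than 0.829 of the group's whole range; chance alone flags about 1 in 20. Prim1 was at 222 CPM in replicate 2 of Kit+ CD45- IgG (the others 178 to 185), at 167 in replicate 4 of Kit+ CD45+ IgG (132 to 135) and at 193 in replicate 4 of Kit- CD41+ CD45- anti-Dll4 (151 to 155). Orc1 was low, at 14.7 CPM, in replicate 3 of Kit+ CD45- IgG (31.1 to 33.6) and at 8.74 in replicate 1 of Kit- CD41+ CD45- anti-Dll4 (17.2 to 18.6). In Kit+ CD45+ IgG, Mcm2 was at 166 CPM in replicate 1 (104 to 109), Gins1 at 68.7 in replicate 4 (53.5 to 55.1) and Rfc1 at 87.5 in replicate 3 (113 to 116).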

How the results depend on the processing

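Depth and 4 libraries a group limit the low genes most, and none of the 5 antibody comparisons gave a replication gene under any alternative run. Of 2651 values of 68 gene results under alternatives, 2282 kept their direction and side of the threshold, 359 kept only the direction and 10 changed sign. Of the 39 alternatives of most results, 24 left out 1 library, often from a group not compared, which could change little. Antibody results that were not called count as kept when they stayed so. In Kit+ CD45- against Kit- CD41+ CD45- cells under IgG, 8 genes were higher with no filter on low counts, 5 with library totals and 24 with library totals without globin genes (15 as reported). Under anti-Dll4, 11 were higher with no filter, 3 with library totals and 11 with only the groups compared (18 as reported), and 0 were lower with upper-quartile scaling and 2 with library totals. In Kit+ CD45+ against Kit+ CD45- cells, library totals gave 3 higher and 0 lower genes under IgG and 7 and 0 under anti-Dll4. Their log2 fold changes then changed sign to 0.028 for Pcna and 0.063 for Prim1 under IgG, and under anti-Dll4 to 0.14 for Pcna and Rfc3, 0.062 for Gins1, 0.19 for Gins4, 0.15 for Orc6, 0.13 for Prim1, 0.049 for Rfc4 and 0.047 for Pola1. With library totals without globin genes, no gene called lower in this pair under IgG lost its call. Under anti-Dll4 only Cdc6 and Orc1 did. In Kit+ CD45+ against Kit- CD41+ CD45- cells under IgG, 16 were higher and 0 lower with library totals and 14 were higher with library totals without globin genes, while 2 were lower with globin genes left out and 3 with only the groups compared. Under anti-Dll4, 3 were higher with no filter, 16 with library totals and 11 with library totals without globin genes. There 0 were lower with library totals, with or without globin genes, and 2 with RLE factors, globin genes left out, limma-voom, DESeq2 or only the groups compared. Apart from the smaller designs, the cause was not tested. Shares of all genes are given above for the main fit and library totals only. The other counts here and below describe the members alone.

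Leaving out each replicate number in turn gave, in Kit+ CD45- against Kit- CD41+ CD45- cells, 5 to 10 higher genes under IgG and 6 to 19 under anti-Dll4, with 1 lower in each. In Kit+ CD45+ against Kit+ CD45- cells it gave 0 to 7 lower under IgG and 4 to 14 under anti-Dll4, and in Kit+ CD45+ against Kit- CD41+ CD45- cells 2 to 4 and 2 to 6 higher and 1 to 2 lower. Leaving out single libraries gave, in the same order, 8 to 17 and 11 to 20 higher (1 and 1 to 2 lower), 2 to 7 and 9 to 13 lower, and 2 to 6 and 3 to 5 higher (1 to 2 and 1 to 3 lower).

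The check over all genes gave weak correlations between libraries of the same antibody and number, so blocks were run as alternatives only. Over the 34 genes alone these correlations ran from -0.31 to 0.89. With a replicate block by number, the counts of genes passing in the 3 pairs were 14, 6 and 5 under IgG and 17, 13 and 7 under anti-Dll4 (16, 6, 5, 19, 12 and 6 as reported), the last with 2 lower. With a block by antibody and number they were 21, 8 and 11 under IgG and 27, 15 and 10 under anti-Dll4; in Kit+ CD45+ against Kit- CD41+ CD45- cells 9 were then higher and 2 lower under IgG and 3 lower under anti-Dll4, and in Kit+ CD45- against Kit- CD41+ CD45- cells 2 were lower under anti-Dll4.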

Other observations

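The control of entry into S phase was looked at for the same deviations from group means, as a description. Of the 18 genes of G1 to S control, 5 had r over 0.7 with the mean deviation of Mcm2-7 and 0 had r under -0.7: Cdk2 at 0.86, Tfdp1 at 0.83, Cdc25a at 0.77, E2f6 at 0.77 and E2f1 at 0.71, named after their values were seen. Cdk2 is the kinase that fires origins with its cyclins and Cdc25a the phosphatase that activates it, while Ccne1, its cyclin, was at -0.18. Of the 51 other replication genes, 7 had r over 0.7 and 9 under -0.7, with a median of -0.13. Of the 8 genes of proliferation 1 lay beyond 0.7 on each side.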
